A study of Mus musculus with 5 samples.

Results

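Heat shock proteins are chaperones that hold and refold other proteins. Their inducible genes are switched on by heat shock factor 1, which binds heat shock elements in their promoters, and Hspa1a is a textbook case of a gene on which RNA polymerase II (Pol II) pauses just past the start and is released upon stress. The unstressed cell also needs constitutive chaperones in the cytosol, the mitochondrion and the endoplasmic reticulum (ER), and these are made by other members of the same families. Pol II occupancy was described here for 10 of these genes, Hspa1a, Hspa1b, Hspa8, Hsph1, Dnajb1, Hsp90aa1, Hsp90ab1, Hspd1, Hspe1 and Hspa5, out of 12876 genes with a peak. The genes were picked because Hspa1a and Hsph1 had lower counts in Setd2-deficient regulatory T (Treg) cells, so the list was selected on the same contrast that is described, and every difference between genotypes at these 10 genes is a description with no p-value.

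Pol II was profiled by CUT&Tag, in which a transposase tethered to an antibody inserts adapters into the DNA around its target, in nuclei of Treg cells sorted from mouse spleen by a Foxp3-YFP reporter. Control mice (Ctrl) carried the Foxp3-driven Cre-YFP allele with 1 floxed Setd2 allele, and knockout mice (KO) carried the same Cre with 2 floxed Setd2 alleles, so both groups express Cre in Treg cells and Ctrl cells keep 1 intact copy of Setd2, the H3K36 methyltransferase gene. All mice were 8 weeks of age and had received complexes of IL-2 (1 μg) and anti-IL-2 antibody (5 μg), called IL-2c, which expand Treg cells, over 3 days, with the spleens taken 48 h later. There were 2 Ctrl and 2 KO libraries of 80000 nuclei, and cells of 2 mice were pooled before sorting. The study counts each library as a biological replicate, but whether each came from its own mice is not clear, so the spread between replicates may be partly technical.

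Total counts were 11331274 and 5624680 in Ctrl 1 and Ctrl 2, and 13351007 and 4489646 in KO 1 and KO 2, and the library numbered 1 was the deeper one in both groups. Counts were divided by size factors of 1.39, 0.726, 1.68 and 0.587 in that order and are called normalized counts. Where 4 values follow each other, they are in the order Ctrl 1, Ctrl 2, KO 1 and KO 2. Setd2 itself had 525, 513, 458 and 560 normalized counts over 9 peaks in the same order, and since the position of the deleted exons is not given in the sources used here these counts do not check the genotype. All 6 Treg cell markers (Foxp3, Il2ra, Ctla4, Ikzf2, Tnfrsf18, Il2rb) held peaks, summed to between 33040 and 39203 normalized counts per library, as did all 6 general T cell markers (9957 to 12095). None of 6 CD8 T and NK cell markers held a peak. Peaks were held by 2 of 6 B cell markers (Cd79a and Cd79b, sums of 89.1 to 136). The same went for 3 of 6 myeloid markers (Spi1, Cd14 and Fcgr3, 535 to 634) and 2 of 6 erythroid markers (Klf1 and Epor, 221 to 254). Ms4a1, Cd8a, Lyz2 and Hbb-bs were among those without a peak. The sums also depend on peak length, which was 103500 bp at Ikzf2 alone. Per kb of peak, the median Ctrl count was 171 for Treg, 168 for T cell, 99.1 for B cell, 190 for myeloid and 115 for erythroid markers. The part of such cells in the results below was not tested.

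A peak was given to a gene when its midpoint lay in the gene or in the 3 kb upstream of it (mm10 coordinates), which gave 29 peaks for 9 of the 10 genes. A peak was called promoter from 3 kb before to 1 kb after the annotated gene start and body beyond that. Hsp90ab1 had no peak by this rule. The promoter elements of the genes are shown first. RefSeq promoters (GRCm38.p6, the assembly of mm10) were on hand for 7 of the 10 genes, and none was for Hspa8, Hsp90aa1 and Hsp90ab1. The 250 bases before the start of Hspa1a and Hspa1b are printed to show how alike the neighbouring copies are, with the exact heat shock unit pair in capitals (chr17:34972157-34972406 and chr17:34959239-34959488, both on the minus strand):

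Hspa1a: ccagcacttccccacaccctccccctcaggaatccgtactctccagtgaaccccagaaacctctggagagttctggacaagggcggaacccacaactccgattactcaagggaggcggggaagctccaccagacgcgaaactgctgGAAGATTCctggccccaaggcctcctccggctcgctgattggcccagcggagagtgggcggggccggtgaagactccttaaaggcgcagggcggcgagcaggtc

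Hspa1b: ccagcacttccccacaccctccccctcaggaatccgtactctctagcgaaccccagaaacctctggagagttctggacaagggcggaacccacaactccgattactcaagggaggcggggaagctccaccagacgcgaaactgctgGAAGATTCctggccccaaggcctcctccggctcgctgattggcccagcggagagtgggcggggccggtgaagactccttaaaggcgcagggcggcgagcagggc

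The windows were identical at 247 of 250 bases (98.8%), and the unit pair began 104 bases before the start in both. Other members' sites, 4 in all, are printed next, at most 30 bases each, to show the exact matches at Hsph1, at the Hspd1 and Hspe1 pair, and at Hspa5. Capitals mark the heat shock units, or at Hspa5 the ER stress response element. Hsph1 had a unit pair 33 bases before its start and a run of 3 units from base 37 of the transcript (chr5:149636351-149636380 and chr5:149636287-149636301, minus strand), Hspe1 had 4 alternating units from 89 bases before its start (chr1:55088053-55088082, plus strand) and Hspa5 an element 65 bases before its start (chr2:34772020-34772048, plus strand). These positions count from RefSeq starts, which at Hsph1, Hspe1 and Hspa5 lie inside the gene spans used for the peaks. The Hsph1 pair and the Hspa5 element thus fall within those spans.

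Hsph1 upstream: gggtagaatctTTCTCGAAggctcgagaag

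Hsph1 transcribed: aTTCTGGAAAGTTCt

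Hspe1: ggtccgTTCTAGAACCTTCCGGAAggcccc

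Hspa5: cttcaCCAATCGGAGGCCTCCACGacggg

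The unit pairs searched were GAANNTTC and TTCNNGAA, each its own reverse complement, and a run of 3 is 2 overlapping pairs and so also counts as a pair. Only exact units were searched, so elements with imperfect units are missed or counted short. At Hspa1a and Hspa1b, GAA and TGC precede the capitals at the same spacing, and TGC differs from TTC by a single base. The element at these copies may thus be longer than the pair in capitals. Of 32851 mouse promoter windows of 300 bases, 250 before and 50 after the start, 15.1% held a pair and 0.603% a run of 3. A pair alone is therefore a common match. Hsph1, Hspe1 and one of the windows of Hspd1, which faces Hspe1 across a shared promoter and holds the same site on the other strand, had the run of 3, whereas the windows of Dnajb1 and Hspa5 held neither. The ER stress response element (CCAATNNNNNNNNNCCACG, both strands) was held by 0.119% of windows. A match is a description of letters, not a measured binding site.

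Hspa1a encodes the main stress-inducible HSP70 and lies at chr17:34969190-34972156 on the minus strand, without introns. It had 800.0 and 477 normalized counts in Ctrl 1 and Ctrl 2, and 319 and 305 in KO 1 and KO 2. The KO libraries were the lower ones without overlap, and the distance between the Ctrl libraries was larger than that from Ctrl 2 to the KO libraries. The means were 638 ± 229 in Ctrl and 312 ± 10.0 in KO (SD, n = 2), a log2 fold change of -1.04 ± 0.24 (SE of the DESeq2 fit). Within library numbers, the log2 ratio was -1.33 for KO 1 over Ctrl 1 (95% counting interval -1.47 to -1.18) and -0.64 for KO 2 over Ctrl 2 (-0.91 to -0.38). Counting intervals cover the counting error only and leave out the variation between mice and between libraries. Both ratios were negative, and 0.10% and 4.47% of all genes had lower ones. Hspa1a was picked on this contrast, so the sign, the intervals and these ranks are not separate from the choice and add no support.

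The Hspa1a signal was in 2 peaks. The promoter peak, 836 bp across the start (chr17:34971885-34972720), had 325, 220, 142 and 128 normalized counts. The other, 1930 bp over the 3′ part of the gene and beyond its end (chr17:34968277-34970206), had 475, 256, 177 and 177. Over all libraries the log2 fold changes were alike, at -1.02 ± 0.29 at the promoter and -1.06 ± 0.29 in the body. Within library numbers they were less alike. The log2 ratio of KO 1 over Ctrl 1 was -1.19 at the promoter and -1.42 in the body. That of KO 2 over Ctrl 2 was -0.79 at the promoter and -0.53 in the body. The promoter held 40.6% (95% Wilson interval 37.8 to 43.5) and 46.2% (41.1 to 51.5) of the gene's counts in Ctrl 1 and Ctrl 2, and 44.5% (40.4 to 48.7) and 41.9% (34.9 to 49.2) in KO 1 and KO 2. These shares overlapped between the genotypes. The promoter peak was shared with Hspa1l, a testis-enriched HSP70 gene that starts head to head with Hspa1a, and the 3′ peak with the non-coding Gm20481, and CUT&Tag reads carry no strand, so neither peak can be credited to one gene.

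Hspa1b, the neighbouring copy of the inducible HSP70 gene (chr17:34956436-34959238, minus strand), had 543, 316, 283 and 209 normalized counts. Both KO libraries were again below both Ctrl libraries, but KO 1 was closer to Ctrl 2 than to KO 2. The means were 429 ± 161 and 246 ± 51.8 (SD, n = 2), with a log2 fold change of -0.80 ± 0.27, and the log2 ratios within numbers were -0.94 (-1.11 to -0.77) and -0.59 (-0.91 to -0.27). Both of its peaks were promoter peaks. The one across the start (1228 bp) had 497, 282, 257 and 181 normalized counts, and one over 2 kb upstream had 45.3, 33.1, 25.5 and 29.0. A further peak of 1800 bp over the 3′ end (chr17:34954913-34956712) had its midpoint 622 bp past the gene end and so was outside the rule, with 354, 150, 137 and 107 normalized counts. In that peak Ctrl 1 stood far above the other 3 libraries, Ctrl 2 included.

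The pair of copies may limit what the reads can show, since only uniquely mapped reads were kept. Of the 50-base stretches between the peaks of Hspa1a, 82.4% also occurred in the other copy with its flanks, and of those between the start and 3′ peaks of Hspa1b 69.3%. Inside the peaks the share was 37.9% (promoter) and 6.86% (3′) for Hspa1a, and 23.2% (start) and 0% (3′) for Hspa1b. No peak was called in the stretch between these peaks, where most of the sequence is shared. The counts thus came from peaks at the ends of these genes and upstream, and any Pol II between the start and 3′ peaks was not counted. The paired reads were longer than 50 bases, and how many of them map uniquely there was not computed. Whether shared sequence or low Pol II left that stretch without a peak was not tested.

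**Figure D1:**
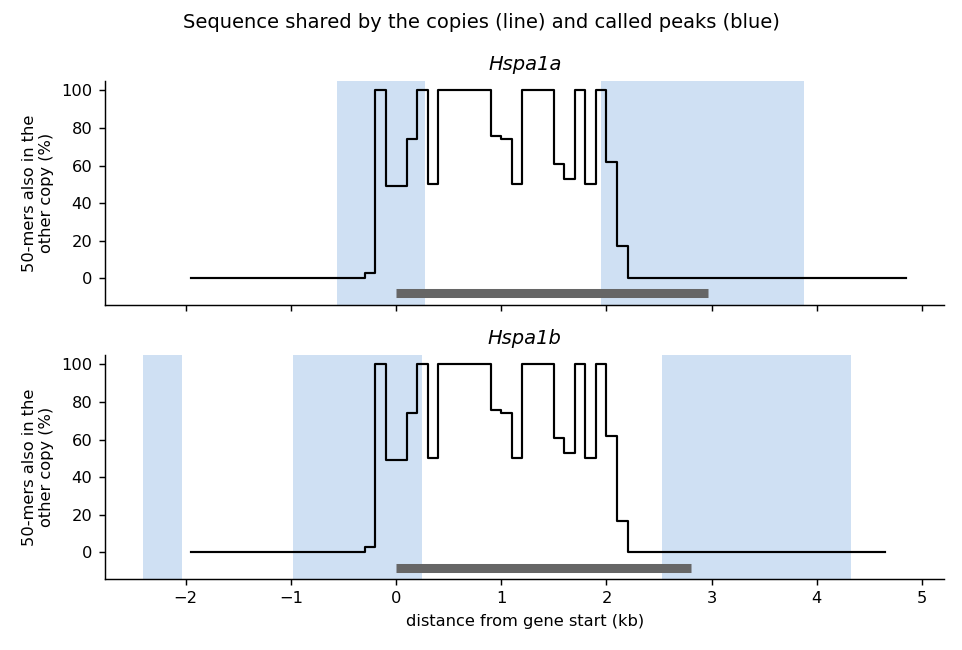
Percentage of 50-base stretches that also occur in the other copy (black line, in 100-bp bins, y axis) against the distance from the start of Hspa1a (top) and Hspa1b (bottom) in kb. Blue areas are the called peaks, the 3′ peak of Hspa1b included, and the grey bar is the gene. Peaks lie mostly where the line is at 0, and the region between them, where 82.4% (Hspa1a) and 69.3% (Hspa1b) of stretches are shared, has none.

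Hsph1 encodes HSP110, a large HSP70 relative that acts as its nucleotide exchange factor. The gene covers chr5:149614287-149636376 on the minus strand and held 9 peaks, the most of any member. It had 3018 and 1597 normalized counts in Ctrl 1 and Ctrl 2, and 1514 and 1034 in KO 1 and KO 2. Ctrl 1 was far above the rest, while Ctrl 2 and KO 1 were nearly level, so that the KO libraries were below the Ctrl libraries by a narrow margin. The means were 2307 ± 1005 and 1274 ± 340 (SD, n = 2), with a log2 fold change of -0.86 ± 0.52. The log2 ratio was -0.99 (-1.07 to -0.92) for KO 1 over Ctrl 1 and -0.63 (-0.77 to -0.49) for KO 2 over Ctrl 2.

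At Hsph1 the promoter and the body differed from each other. The promoter peak (chr5:149635687-149636760) had 702, 528, 516 and 390 normalized counts, a log2 fold change of -0.44 ± 0.23 and the same log2 ratio, -0.44, within both library numbers. The 8 body peaks together had 2316, 1069, 999 and 644, a log2 fold change of -1.04 ± 0.61 and log2 ratios of -1.21 and -0.73. The fold change was thus larger in the body than at the promoter within both numbers, but the body also carried the larger spread between Ctrl libraries. The largest body peak, 7574 bp over the 3′ part of the gene (chr5:149614663-149622236), had 1449, 752, 641 and 451. The 3 peaks from 6727 to 13467 bp past the start had 179, 265 and 214 normalized counts in Ctrl 1 against 78.5, 85.4 and 53.7 in Ctrl 2, 74.9, 86.1 and 89.1 in KO 1, and 42.6, 44.3 and 27.3 in KO 2. In each of these 3 peaks Ctrl 1 was over 2 times any other library, and Ctrl 2 was close to or below KO 1.

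The promoter share of Hsph1 was 23.2% (22.0 to 24.5) and 33.0% (30.4 to 35.8) in Ctrl 1 and Ctrl 2, and 34.1% (32.2 to 35.9) and 37.7% (34.0 to 41.6) in KO 1 and KO 2. The intervals of Ctrl 2 and both KO libraries overlapped and that of Ctrl 1 lay below them. The log2 ratio of body over promoter differed by -0.77 between KO 1 and Ctrl 1 and by -0.30 between KO 2 and Ctrl 2, and by 0.70 between Ctrl 1 and Ctrl 2. Among 4945 genes with at least 50 normalized counts in both classes, 0.506%, 19.1% and 98.0% had lower values of these 3 differences. The body signal was thus high in Ctrl 1 against its own promoter, not only against the other libraries. A peak of 1247 bp with its midpoint 741 bp past the gene end, outside the rule, had 202, 136, 117 and 74.9.

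**Figure D2:**
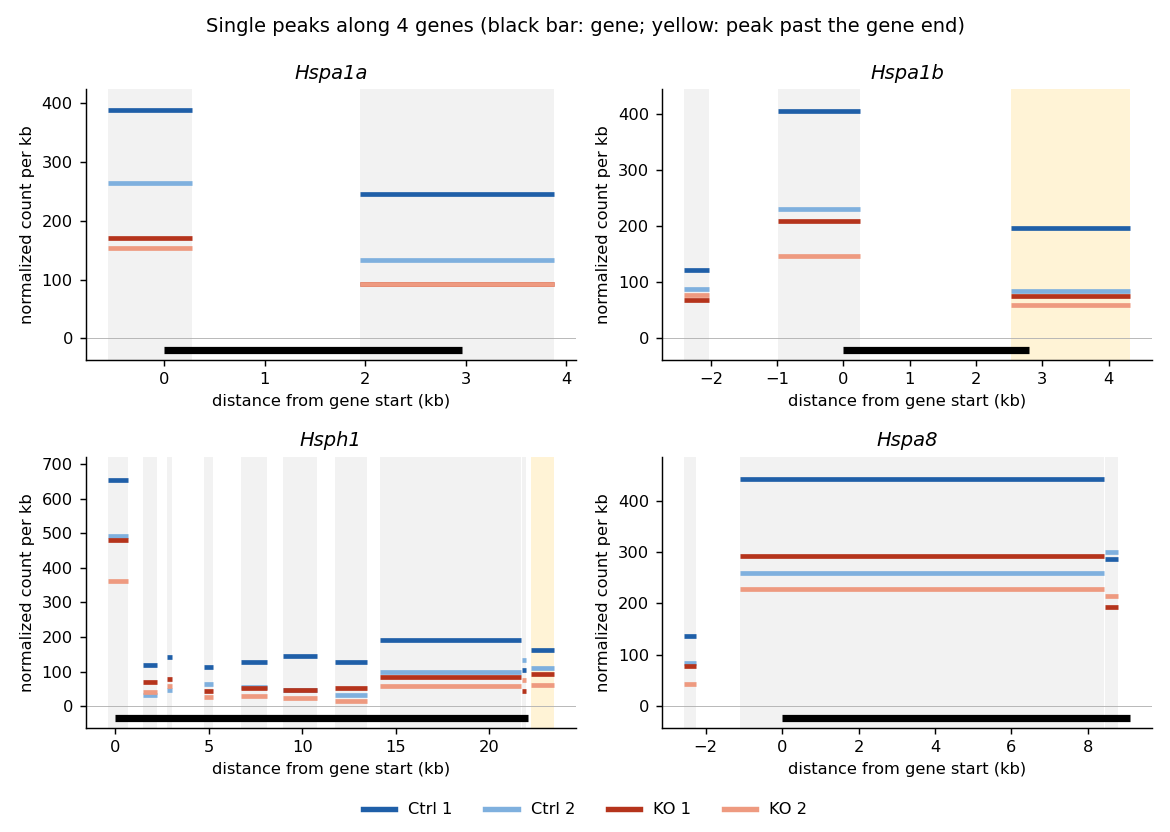
Normalized count per kb of peak (y axis) of each peak of Hspa1a, Hspa1b, Hsph1 and Hspa8 against the distance from the gene start in kb (x axis), with 1 line per library (dark and light blue Ctrl 1 and Ctrl 2, dark and light red KO 1 and KO 2). The line of Ctrl 1 is the highest in both Hspa1a peaks and in 8 of 9 Hsph1 peaks. KO 1 and KO 2 coincide in the 3′ peak of Hspa1a, at 91.7 and 91.8 normalized counts per kb.

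**Figure D3:**
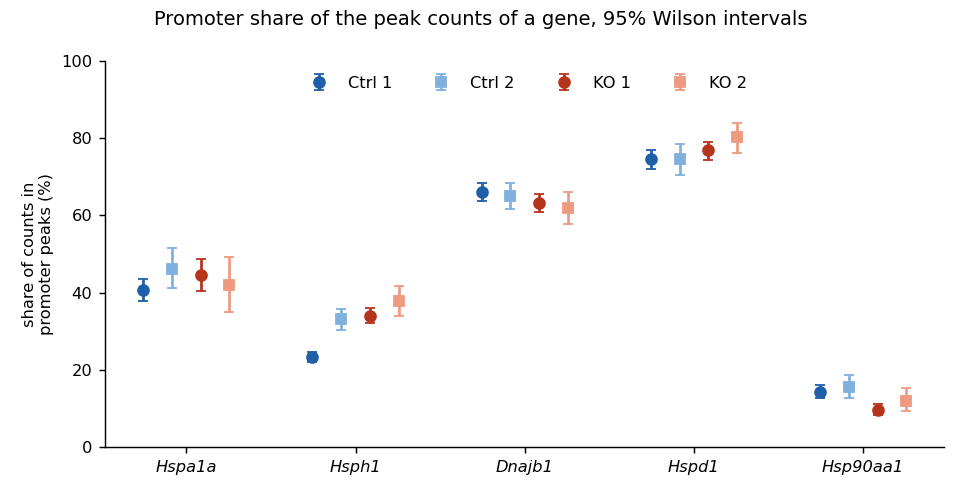
Share of a gene's peak counts that lay in promoter peaks (y axis, %) in the 4 libraries, with 95% Wilson intervals, for 5 members. At Hsph1, Ctrl 1 (23.2%) is below Ctrl 2 (33.0%), KO 1 (34.1%) and KO 2 (37.7%), and at Hspa1a and Dnajb1 the intervals of the 2 genotypes overlap.

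Hspa8 encodes HSC70, the constitutive cytosolic HSP70 (chr9:40800984-40810087, plus strand). It had 4357, 2599, 2885 and 2262 normalized counts. KO 1 was above Ctrl 2, so the groups overlapped. The means were 3478 ± 1243 and 2573 ± 441 (SD, n = 2), with a log2 fold change of -0.43 ± 0.40, and the log2 ratios within numbers were -0.59 (-0.65 to -0.54) and -0.20 (-0.30 to -0.10). Nearly all of the count came from 1 peak of 9539 bp that runs from 1109 bp before the start to 8429 bp into the gene, with 4211, 2465, 2791 and 2172, so that promoter and body cannot be told apart for this gene. A small upstream promoter peak had 42.4, 26.2, 24.4 and 13.6, and a peak of 359 bp at the end of the gene 103, 107, 69.5 and 76.6. In both of the small peaks the KO libraries were below the Ctrl libraries.

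Dnajb1 encodes HSP40, the J-domain protein that hands clients to HSP70 (chr8:83608193-83612653, plus strand). It had 1169, 1010, 1068 and 887 normalized counts, with overlapping groups. The means were 1089 ± 112 and 977 ± 127 (SD, n = 2) and the log2 fold change was -0.15 ± 0.17. The log2 fold change was -0.22 ± 0.20 at the promoter, where 772, 657, 676 and 550 were counted, and -0.04 ± 0.21 in the body, where the counts were 397, 353, 392 and 337. The promoter held 66.1%, 65.1%, 63.3% and 62.0% of the counts. Of its 3 peaks 2, the promoter one included, were shared with Tecr, a fatty acid elongation gene that had 1842, 1714, 1743 and 1753 over 6 peaks.

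Hsp90aa1 encodes the stress-inducible HSP90 (chr12:110690605-110702728, minus strand). It had 1119, 805, 907 and 836 normalized counts, and both KO libraries lay between the Ctrl libraries. The log2 fold change was -0.14 ± 0.19, and the log2 ratio was -0.30 (-0.40 to -0.20) for KO 1 over Ctrl 1 and 0.06 (-0.12 to 0.23) for KO 2 over Ctrl 2, so the sign differed between the numbers. Here the rule for promoters mattered. The main peak, 2893 bp that hold 1 or more starts of shorter transcripts (chr12:110694307-110697199), lay 5529 to 8421 bp into the longest gene model and so counted as body, with 849, 609, 731 and 676. The 2 peaks near the first annotated start had only 159, 124, 87.3 and 100 together, a log2 fold change of -0.61 ± 0.33, against -0.05 ± 0.21 for the peak over the other starts. A peak of 6434 bp across the gene end, its midpoint 832 bp beyond, was outside the rule and had 1656, 942, 980 and 702. With it the gene had a log2 fold change of -0.40 ± 0.20, and the sign turned negative in both numbers.

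Hsp90ab1, the constitutive HSP90 gene (chr17:45567775-45573271, minus strand), was left without a value by the rule. A single merged peak of 20906 bp (chr17:45554947-45575852) covers the whole gene and its neighbour Slc35b2, and the midpoint of the peak lay 2374 bp past the end of Hsp90ab1. This peak had 9797, 7305, 7746 and 6550 normalized counts. KO 1 was above Ctrl 2, and the log2 fold change under a rule of any overlap was -0.26 ± 0.16. The counts of the peak cannot be split between the neighbouring genes.

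Hspd1 and Hspe1 encode HSP60 and HSP10, the chaperonin of the mitochondrial matrix and its lid, and are transcribed apart from a common promoter (chr1:55077835-55088243, minus strand, and chr1:55088132-55091307, plus strand). The peak of 3287 bp over both starts had 644, 471, 588 and 547 normalized counts. Both KO libraries were between the Ctrl libraries, and the log2 fold change of this peak was 0.02 ± 0.22. The sums were 864, 631, 765 and 681 for Hspd1 (log2 fold change -0.05 ± 0.19) and 745, 568, 688 and 618 for Hspe1 (-0.01 ± 0.19), and since both share 2 peaks these are not separate measurements. The 2 peaks that belong to Hspd1 alone had 119, 63.4, 77.2 and 63.0 together, with a log2 fold change of -0.38 ± 0.41. For both genes the log2 ratio was below 0 for KO 1 over Ctrl 1 (-0.18 and -0.12) and above 0 for KO 2 over Ctrl 2 (0.11 and 0.12).

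Hspa5 encodes BiP, the HSP70 of the ER and a marker of the unfolded protein response (chr2:34771970-34777547, plus strand). It had 1601, 1642, 1633 and 1700 normalized counts, the narrowest range of the 9 members. The means were 1622 ± 29.4 and 1666 ± 47.5 (SD, n = 2), with a log2 fold change of 0.04 ± 0.14 and log2 ratios within numbers of 0.03 (-0.05 to 0.11) and 0.05 (-0.07 to 0.17). It was the only one of the 9 with a positive fold change, which became -0.03 ± 0.13 when every overlapping peak was counted. Its peak of 3763 bp runs from 398 bp before the start to 3364 bp into the gene, so it counted as body by its midpoint although it covers the promoter, and a second peak at the gene end, given to Rabepk, had 1282, 1062, 1181 and 954.

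**Figure D4:**
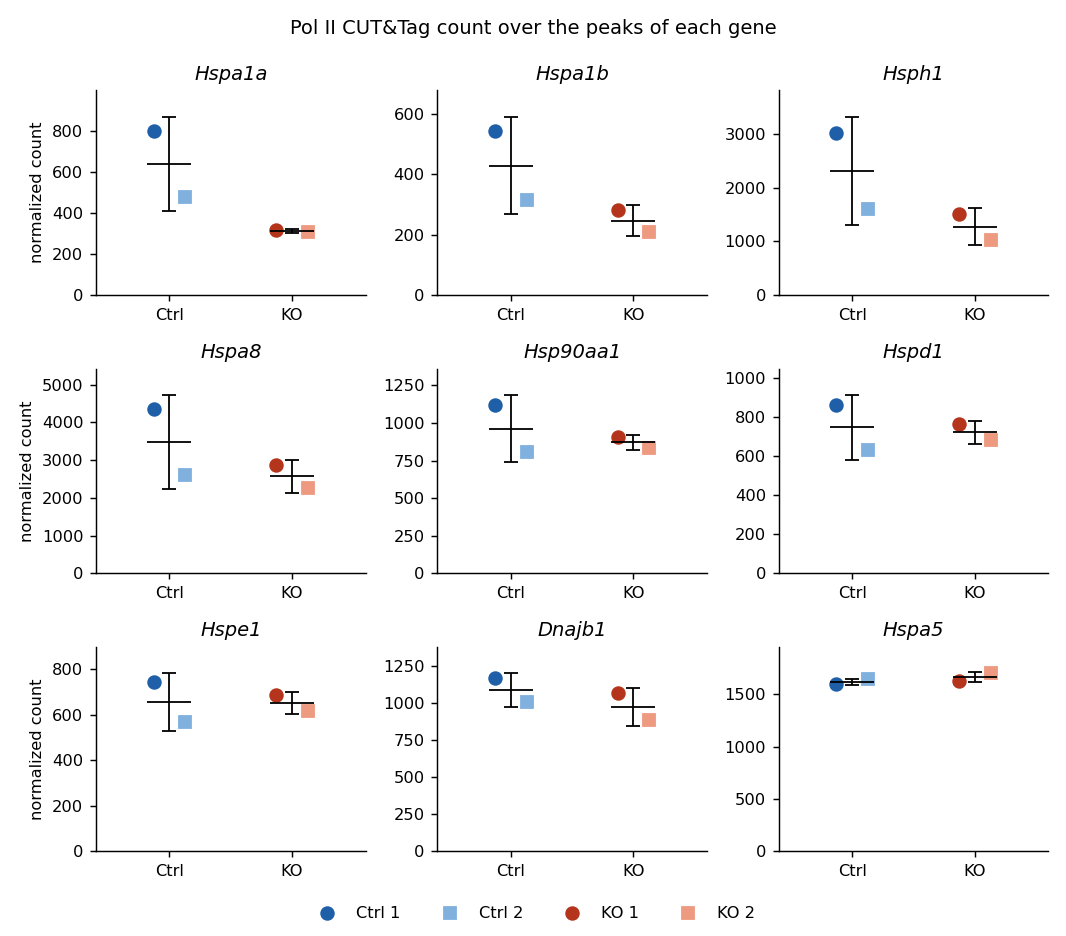
Normalized count over the peaks of each of 9 members (y axis, from 0) in the Ctrl and KO libraries. Points are libraries (circles numbered 1, squares numbered 2) and bars are the mean ± SD (n = 2). The groups do not overlap at Hspa1a, Hspa1b and Hsph1, whereas Hspa5 lies between 1601 and 1700 in all 4 libraries.

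Across members, the counts per kb of peak in Ctrl ran from 431 at Hspa5 and 341 at Hspa8 through Hspa1b (268), Dnajb1 (257), Hspa1a (231), Hsp90aa1 (193), Hspe1 (154) and Hsph1 (151) to Hspd1 (145). The ranges of the Ctrl libraries of neighbours in this order overlapped in every case. In KO the means ran from 443 at Hspa5 and 252 at Hspa8 through Dnajb1 (231), Hsp90aa1 (175), Hspa1b (154), Hspe1 (153), Hspd1 (140) and Hspa1a (113) to Hsph1 (83.3), and here Hspa5 and Hspa8, Dnajb1 and Hsp90aa1, Hspd1 and Hspa1a, and Hspa1a and Hsph1 did not overlap. Hspa1a moved from the fifth place to the eighth. Peaks were called on the same libraries and differ in length, which limits such an order.

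The KO libraries were below the Ctrl libraries without overlap at 3 of 9 members (Hspa1a, Hspa1b, Hsph1), beside 19.0% of all genes. They were above the Ctrl libraries without overlap at none, beside 15.2% of all genes. Of the 29 member peaks, 14 had KO below Ctrl, against 16.1% of all peaks, and 26 had a negative log2 fold change, against 51.1%. The member peaks were not independent of the choice of genes, and these counts are printed beside the background without a reading. The same holds for the test over all genes, in which 13 of 12876 (0.101%) passed an adjusted p of 0.05 in DESeq2, and no call of a member is read from it. That count was 0 in edgeR (583 genes at an unadjusted p of 0.05), 0 without Ctrl 1 or KO 1 and 3 without Ctrl 2 or KO 2. The median log2 fold change of the 9 members was -0.15, beside -0.02 over all genes. It was -0.0043 without Ctrl 1 (all genes 0.02), -0.36 without Ctrl 2, -0.30 without KO 1 and -0.08 without KO 2, so its distance from all genes rested on Ctrl 1. KO was below Ctrl within both library numbers at 5 of 9 members, the 3 named and Hspa8 and Dnajb1, against 35.3% of all genes.

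The 2 Ctrl libraries also differed from each other at most of these genes. The log2 ratio of Ctrl 1 over Ctrl 2 was 0.92 at Hsph1 (0.82 to 1.01), 0.78 at Hspa1b (0.57 to 1.00), 0.75 at Hspa1a (0.57 to 0.92) and 0.75 at Hspa8 (0.67 to 0.82). It was 0.48 at Hsp90aa1, 0.45 at Hspd1, 0.39 at Hspe1, 0.21 at Dnajb1 and -0.04 at Hspa5, with a median of 0.48 beside 0.05 over all genes, whose middle 90% ran from -0.53 to 0.57. These ratios and the fold changes between genotypes both contain Ctrl 1 and are not separate results. KO 1 over KO 2, which does not contain Ctrl 1, had a median of 0.17 beside 0.03 over all genes and was 0.55 at Hsph1 (0.42 to 0.68), 0.43 at Hspa1b, 0.35 at Hspa8, 0.27 at Dnajb1 and 0.07 at Hspa1a (-0.18 to 0.31). The library numbered 1 was above that numbered 2 in both groups at 8 of 9 members, Hspa5 being the exception, against 39.3% of all genes. Ctrl 1 was the highest of the 4 libraries at those 8 members, against 30.7% of all genes, and in 25 of the 29 peaks, against 23.1% of all peaks. Why the libraries differ was not tested.

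**Figure D5:**
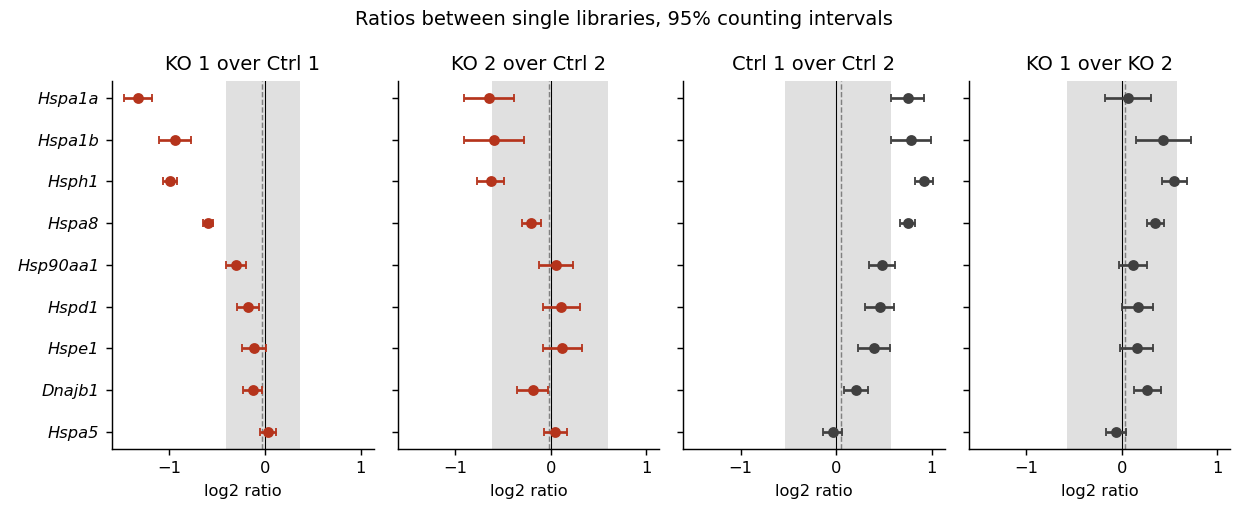
Log2 ratio between single libraries (x axis) for 9 members, with 95% counting intervals, in 4 panels: KO 1 over Ctrl 1 and KO 2 over Ctrl 2 (red), Ctrl 1 over Ctrl 2 and KO 1 over KO 2 (grey). Grey areas hold the middle 90% of all genes and the dashed line is their median. Hspa1a, Hspa1b, Hsph1 and Hspa8 lie left of the grey area in the first panel and right of it in the third, and Hspa1a, Hspa1b and Hsph1 lie at its left edge in the second.

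Without Ctrl 1 the log2 fold change was -0.60 at Hspa1a, -0.34 at Hspa1b, -0.31 at Hsph1 and -0.0043 at Hspa8, and it was 0.12 at Hsp90aa1, 0.21 at Hspd1 and 0.21 at Hspe1. Without this library Hspa1a, Hspa1b and Hsph1 were negative at smaller values, and Hspa8 was near 0. Where the groups do not overlap, leaving out any 1 library keeps the sign, so the sign at these genes adds no support. With Ctrl 2 left out in place of Ctrl 1 the values of the first 4 were -1.36, -1.13, -1.24 and -0.76.

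The other genes of the chaperone system were counted from 6 lists without any member: further HSP70 and HSP110 genes with their exchange factors, J-domain co-chaperones, HSP90 co-chaperones, chaperonins and mitochondrial folding, ER folding with the unfolded protein response, and small heat shock proteins with heat shock factors. Of their 102 genes, 94 had a peak. None passed an adjusted p of 0.05 in DESeq2 and 4 passed an unadjusted p of 0.05, as did 2.62% of all genes, while edgeR called none after adjustment and 5 unadjusted, against 4.53% of all genes. Hspa1l was among both the 4 and the 5, mostly through a peak shared with the member Hspa1a, so its call is not separate from the selection. With only peaks of 1 gene, 3 list genes passed in DESeq2, as did 2.67% of all genes. The 4 became 1 without Ctrl 1 or without KO 2, where 1.08% and 0.683% of all genes passed, and 7 with the library number as a block, where 4.73% did. KO was below Ctrl without overlap at 21 of the 94 (22.3%), beside 19.0% of all genes, and above it at 7, beside 15.2%. The median log2 fold change was -0.04, with 60 genes below and 34 above 0 where 54.5% of all genes were below, and per list it ran from -0.07 (HSP90 co-chaperones and ER folding) to -0.01 (HSP70, HSP110 and exchange factors).

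The 4 genes at an unadjusted p of 0.05 were all lower in KO. Hspa1l had 364, 245, 168 and 194 normalized counts (log2 fold change -0.77 ± 0.26), most of it from the promoter peak it shares with Hspa1a. That peak is part of the contrast on which Hspa1a was picked, so no p-value is printed for Hspa1l. Dnajb2, a J-domain co-chaperone, had 617, 559, 447 and 364 (-0.53 ± 0.19, DESeq2 unadjusted p = 0.0063, adjusted p = 1.00). Chordc1, an HSP90 co-chaperone, had 537, 416, 359 and 291 (-0.55 ± 0.22, DESeq2 unadjusted p = 0.0116, adjusted p = 1.00). Cct3, a subunit of the cytosolic chaperonin, had 875, 744, 646 and 632 (-0.34 ± 0.17, DESeq2 unadjusted p = 0.0446, adjusted p = 1.00). In these last 3 the KO libraries were below the Ctrl libraries and the Ctrl libraries were closer to each other than at Hspa1a, with log2 ratios of Ctrl 1 over Ctrl 2 of 0.14 at Dnajb2, 0.37 at Chordc1 and 0.24 at Cct3.

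Of the genes highest in each list, Dnaja1, another HSP40, had 3872, 1939, 2560 and 1695 normalized counts (log2 fold change -0.45 ± 0.56). It shared the order of libraries seen at Hspa8, with the library numbered 1 above that numbered 2 in both groups, and its groups overlapped. Dnajb6 had 2669, 2030, 2147 and 1684 (-0.29 ± 0.17), and Hspa4, a further HSP110, 1410, 1285, 1331 and 1095 (-0.15 ± 0.16). Hsf1, the heat shock factor gene, had 1206, 1276, 1159 and 1335 (0.00 ± 0.15). The unfolded protein response factors Atf4 (log2 fold change 0.00 ± 0.15) and Ddit3 (-0.15 ± 0.15) were within 1 SE of 0. So were the HSP90 co-chaperones Cdc37 (-0.10 ± 0.14) and Unc45a (-0.12 ± 0.13). The same held for Bag6 from the HSP70 and HSP110 list (0.05 ± 0.16) and the mitochondrial Grpel1 (0.14 ± 0.16) and Lonp1 (-0.04 ± 0.16).

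The genes with the most similar profile over the 4 libraries were sought by the smallest Euclidean distance of centred log2(normalized count + 1) values. For Hspa1a, among 11792 genes, these were Slc30a3 (distance 0.26), Obsl1 (0.27), Mmp17 (0.29), Hspa1b (0.34) and Vgf (0.35). Slc30a3 had 208, 149, 97.4 and 78.3 normalized counts and Obsl1 367, 218, 141 and 111. For Hsph1, among 11794 genes, Hspa1b was the nearest (0.14), followed by Ccdc125 (0.26), Etv4 (0.32), Gm2044 (0.35) and Mpp7 (0.37), of which Mpp7 had 1711, 1246, 1014 and 789. Hspa1b was the only chaperone gene among these, and 4 libraries give little ground for likeness.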

How the data were processed

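The deposited table holds raw read counts per merged peak for 4 Pol II CUT&Tag libraries. The authors mapped paired-end reads to mm10 with Bowtie2, kept uniquely mapped reads without duplicates, called peaks with MACS2 against IgG, merged them across libraries with bedtools and extracted the raw counts; versions are not given in the sources used here. The IgG library was not analysed here, and the Ctrl libraries are labelled WT in the table. Counts were summed over the peaks of each of 12876 protein-coding or long non-coding GENCODE vM21 genes, and a peak shared by neighbours counted for each. Size factors came from all 56615 peaks. DESeq2 1.42.0 (R 4.3.3), the tool of the study, was fitted over all genes and over all peaks with genotype as the only term, two-sided Wald p-values and Benjamini-Hochberg adjustment at 0.05. edgeR 4.0.16 quasi-likelihood tests, the replicate block, other scalings and filters, other peak rules and leaving out each library were alternatives. Single-library ratios have 95% counting intervals on the log scale and shares 95% Wilson intervals. Promoter windows are from RefSeq. With 2 libraries per group, SDs are rough, and the shallower libraries numbered 2 are less precise.

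The members and lists were chosen with earlier results of these data known. Besides the members, genes were named by a rule: list genes at an unadjusted p of 0.05, the 2 highest in Ctrl per list, genes that share a peak with a member, and the 5 genes nearest to Hspa1a and Hsph1 with a mean of at least 50 normalized counts. Slc35b2 and Rabepk were named after their values were seen. Of the genes this rule names, 1 is not reported here.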

Additional observations from a re-analysis of the deposited data

How the results depend on the processing

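Of 12876 genes, 13 passed the adjusted threshold in DESeq2, and 0 in edgeR with TMM scaling, 6 with only peaks of 1 gene, 3 with only promoter peaks and 2 with only peaks covering a start (a rule added after the data were seen, as was a window reaching 3 kb past the gene end). Leaving out 1 library gave 0 to 3 genes. At single peaks DESeq2 called 0 of 56615 (864 at an unadjusted p of 0.05), edgeR 27, and leaving out 1 library 0 to 5. The median log2 fold change of the 9 members with a peak was -0.15. It was -0.52 over the 8 members with promoter peaks, -0.38 over the 7 with peaks of 1 gene only and -0.33 over 10 with any overlap. These medians cover different members and are not like for like. Leaving out 1 library gave -0.36 to -0.0043, the latter without Ctrl 1. Of the other chaperone genes, 4 passed an unadjusted p of 0.05, and 1 to 5 did without 1 library. Other scalings and a mean of at least 10 counts, which removed no gene, kept the counts of genes within 1.5 times. The library numbers are not stated to pair the libraries. With the number as a replicate block 121 genes and 25 peaks passed the adjusted threshold and 7 other chaperone genes an unadjusted p of 0.05, and the median of the members was -0.16. The deviations of Ctrl 1 and KO 1 from their group means correlated across genes with r = 0.37, which rests on 2 numbers only.

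The log2 fold change of Hspa1a ran from -1.36 to -0.60 over the alternatives that gave one, that of Hspa1b from -1.13 to -0.34 and that of Hsph1 from -1.24 to -0.31, each nearest 0 without Ctrl 1. Each kept its sign, which for leaving out 1 library follows from groups that do not overlap. Hspa8 ran from -0.82 to -0.0043 and Dnajb1 from -0.30 to -0.02. The sign changed in 1 alternative at Hsp90aa1, in 4 at Hspd1, in 4 at Hspe1 and in 2 at Hspa5, and the cause was not tested.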
